A study of Drosophila melanogaster with 4 samples.

Results

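The regions described are the POF clusters at the centromere-proximal ends of the Drosophila melanogaster arms 2L, 3L, 3R and X. A cluster is a stretch of the genome listed by the authors as enriched in chromatin immunoprecipitation with sequencing (ChIP-seq). A cluster of the combined list was taken as centromere-proximal when its midpoint lay at 21500001 or beyond on 2L, at 23000001 or beyond on 3L, at 20900001 or beyond on X, or between 1 and 1500000 on 3R, in coordinates of FlyBase release 5. The centromere lies at the high-coordinate end of 2L, 3L and X and at the low-coordinate end of 3R, so each end spans 1.5 to 1.54 Mb. This rule gave 722 of the 20574 clusters of the combined list, 222 of the 6433 clusters of replicate 1 and 201 of the 5786 clusters of replicate 2. The 722 clusters comprised 152 on 2L, 156 on 3L, 272 on 3R and 142 on X.

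The libraries were made from wild-type Oregon-R larvae of the 3rd instar, with 2 POF ChIP libraries and 2 input libraries. POF was precipitated with MO 459, an affinity-purified rabbit polyclonal antibody against residues 1 to 150 of the protein. All libraries share the strain and the stage, the labels name no treatment or altered allele, and no tissue of the larvae is named, so the tissues that carry a cluster cannot be told apart. Nothing in the labels says that the replicates came from separate cultures, and the spread between them may be technical. Groups were taken from the sample titles, which match the source names. The descriptions follow the replicate number instead: those of ChIP replicate 1 and input replicate 1 name both ChIP DNA with this antibody and input DNA, and those of ChIP replicate 2 and input replicate 2 name input DNA only. Whether any libraries were exchanged was not tested, and the values of both replicates rest on their titles. The replicates also differed on chromosome 4, of which clusters covered 3.92% in replicate 1 and 27.9% in replicate 2. In replicate 1 that share was below the 8.58% of the 4 large arms away from both ends. In replicate 2 it was above the 10.3% of those stretches. The sources used here do not say how the combined list was made, so it is not counted as a further replicate. Clusters of the input libraries are not analysed here.

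POF is an RNA-binding protein that coats chromosome 4, a small chromosome on which active genes lie within chromatin rich in heterochromatin protein 1 (HP1a). The ends of the large arms that face the centromere pass into pericentric heterochromatin, which is rich in repeats, in methylated histones and in HP1a, and which also holds active genes. How far the assembled sequence of an arm reaches into that heterochromatin differs between arms. The comparison therefore asks whether POF clusters at these ends differ from those along the rest of the same arms. The rest was taken without the distal 1 Mb next to the telomere.

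Clusters were sparser at the proximal ends of 2L, 3L and X than along the rest of those arms, in all 3 lists. The proximal end of 3R was covered about as densely as the rest of 3R or more densely. Proximal 2L and 3L held a larger share of high-scoring combined clusters than the rest of those arms. Most of those clusters overlapped no cluster of either replicate list, whereas each high-scoring cluster of proximal 3R overlapped clusters of both.

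Over the 4 arms, clusters of the combined list covered 22.07% of the proximal ends and 29.99% of the rest, with unresolved bases of the assembly counted as uncovered. In replicate 1 the shares were 6.63% at the proximal ends and 8.58% in the rest, and in replicate 2 they were 7.32% and 10.3%. The replicate lists averaged 6.97% ± 0.485 for the proximal ends and 9.45% ± 1.23 for the rest (SD, n = 2 libraries). The difference was -2.47 percentage points ± 0.74 (SD, n = 2) and had the same sign in each library. A two-sided exact sign-flip permutation test over 2 libraries gave p = 0.5, the smallest this design allows, and so cannot reach significance. Density showed the same order, with 118.8 clusters per Mb at the proximal ends and 160.2 per Mb in the rest of the combined list. It was 36.5 and 49.2 per Mb in replicate 1, and 33.1 and 45.4 per Mb in replicate 2.

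The 4 arms did not behave alike. On X, clusters covered 15.99% of the proximal end and 27.01% of the rest in the combined list, with 2.91% and 5.65% in replicate 1 and 4.94% and 11.1% in replicate 2. The ratio of proximal end to rest on X was 0.48 ± 0.05 over the replicate lists (SD, n = 2). On 2L the proximal end was covered to 18.5% and the rest to 27.98% in the combined list, and the replicate ratio was 0.64 ± 0.11 (SD, n = 2). On 3L the combined list gave 18.1% at the proximal end and 29.7% in the rest. The 3L replicates differed in size, with 7.16% at the proximal end and 8.70% in the rest in replicate 1, and 3.14% and 9.79% in replicate 2. Its ratio was accordingly spread, at 0.57 ± 0.36 (SD, n = 2).

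On 3R the proximal end was covered to 35.9% and the rest to 34.2% in the combined list. Replicate 1 gave 10.299% for the proximal end and 10.7% for the rest, and replicate 2 gave 15.98% and 10.7%. The 3R difference thus changed sign between the libraries and averaged 2.40 percentage points ± 4.01 (SD, n = 2), within the spread between them. With 3R left out, the proximal ends of 2L, 3L and X were covered to 17.5% and their rest to 28.3% in the combined list. The replicate lists averaged 4.95% ± 0.67 at those 3 ends and 8.92% ± 1.73 in the rest (SD, n = 2).

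**Figure D1:**
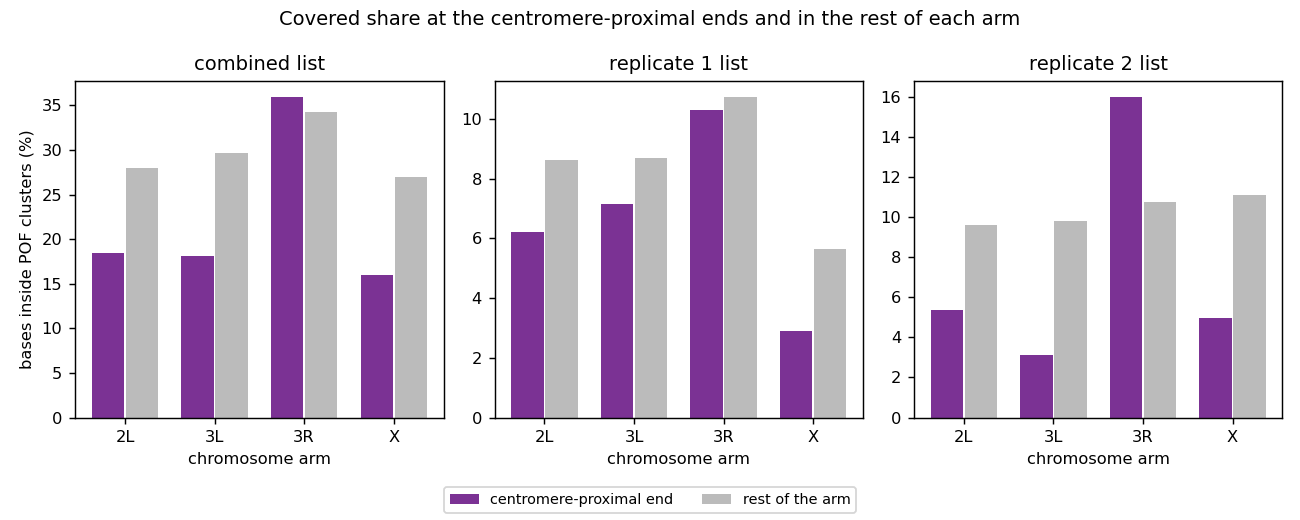
Percentage of bases inside POF clusters (vertical axis, from 0, with its own scale in each panel) at the centromere-proximal end and in the rest of each arm, for the combined list and each replicate list. The bars are single values of a list, without error bars; the proximal bar is lower than its neighbour on 2L, 3L and X in each panel, and on 3R it is higher in the combined list and in replicate 2.

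Large regions of an arm differ from each other, so each proximal end was also set beside windows of 1.5 Mb laid end to end over the rest of the same arm. These ranks are a description of the lists. On X, all 13 windows were covered more than the proximal end in the combined list and in both replicate lists. The lowest of those X windows had 18.4% in the combined list, against the 15.99% of the proximal end. On 3L, all 14 windows were above the proximal end in the combined list and in replicate 2, and 9 of 14 were above it in replicate 1. On 2L, 2 of 13 windows were below the proximal end in each of the 3 lists, so coverage as low was found elsewhere on that arm. On 3R, the proximal end exceeded 13 of 16 windows in the combined list, 8 of 16 in replicate 1 and 15 of 16 in replicate 2.

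**Figure D2:**
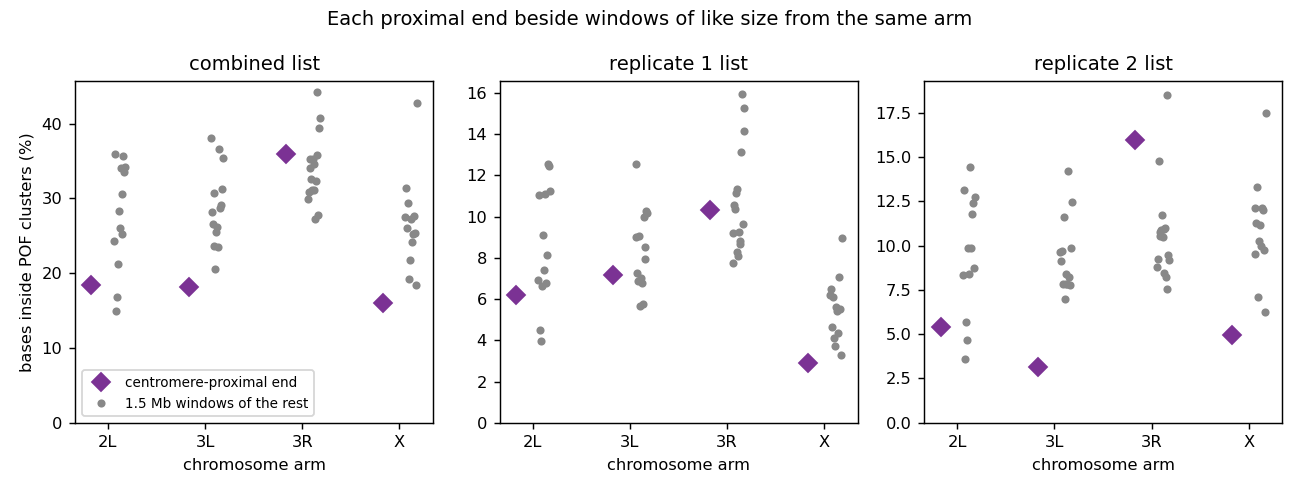
Percentage of bases inside POF clusters at each proximal end (diamonds) and in 1.5 Mb windows of the rest of the same arm (dots), by arm and list, with each axis starting at 0. On X the diamond lies below all 13 windows in each list, and on 3R it lies above 15 of the 16 windows in replicate 2.

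Coverage was not even within the proximal ends. On 3L the combined list covered 12.4% of the 500 kb next to the centromeric end of the sequence, 21.2% of the next 500 kb and 21.5% of the outermost 500 kb, and then 33.7% of the 500 kb just beyond. Both replicate lists also gave 3L its lowest of these 4 values next to the end, at 4.24% in replicate 1 and 1.12% in replicate 2. X followed the same order inside its end, with 9.18%, 14.4% and 23.5% in the combined list, whereas replicate 1 had 2.33%, 2.06% and 4.09% and replicate 2 had 0.68%, 4.40% and 8.77%. The 500 kb just beyond held only 10.97% in the combined set, 1.80% for replicate 1 and 2.21% for replicate 2, and the next 500 kb held 33.4% in the combined list. Coverage on X thus had a second low stretch outside the border used here.

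On 2L the order was different. The combined list covered 21.6% and 23.4% of the 500 kb stretches nearer the centromeric end and 10.8% of the outermost, the lowest value among the first 10 such stretches of the arm. Replicate 1 covered that outermost stretch to 2.40% and replicate 2 to 3.86%, in each case their lowest of the 10. The 500 kb next to the centromeric end were covered to 8.27% in replicate 1, near the 8.62% of the rest of 2L, and to 4.67% in replicate 2, where the rest had 9.60%. The proximal 1.0 Mb of 2L was also below the rest, with a difference of -5.45 percentage points in the combined list.

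The coverage of proximal 3R was uneven too. The combined list covered 34.3% of its innermost 500 kb, 27.6% of the middle 500 kb and 45.9% of the outermost. Replicate 2 had 23.2% in the outermost stretch and 9.19% in the middle one, and replicate 1 had 13.2% and 7.60%. A further stretch, 200 to 300 kb from the centromeric end, was covered to 54.7% in the combined list and 34.8% in replicate 2. It was not dense in replicate 1, at 8.75%, below the 10.7% of the rest of 3R. The densest 100 kb of the combined list and of replicate 2 lay 1400 to 1500 kb from the centromeric end, with 64.7% and 40.7% covered. Replicate 1 had 15.2% there and its highest value, 18.6%, at 1000 to 1100 kb. The value for 3R therefore depends on where the end is drawn. With only the proximal 1.0 Mb taken, the difference from the rest of 3R was -3.25 percentage points in the combined list, against 1.71 with the full end.

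**Figure D3:**
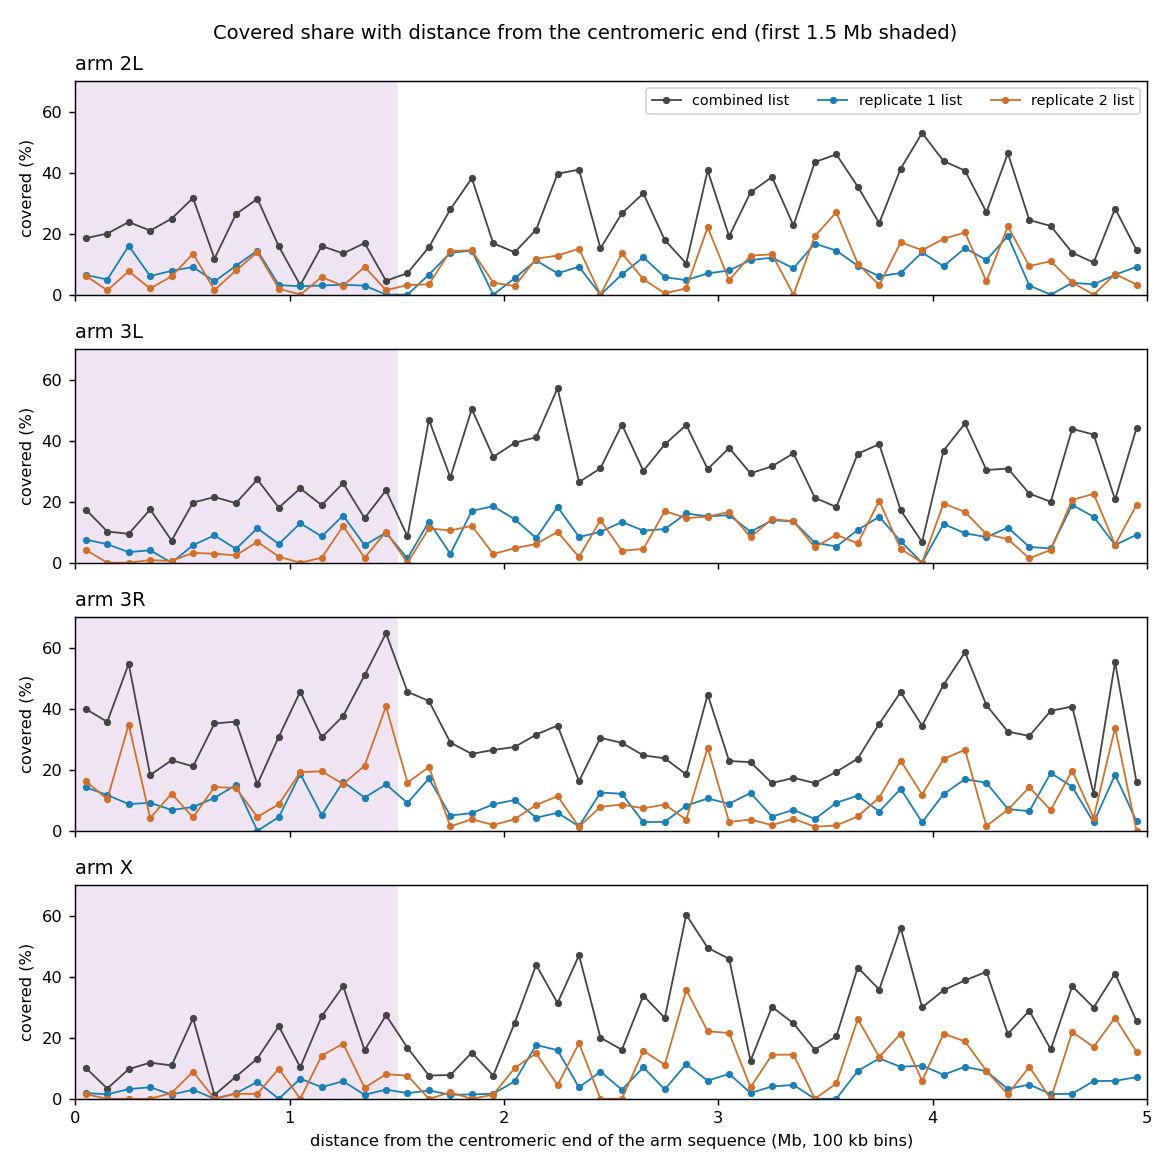
Percentage of bases inside POF clusters in 100 kb bins (vertical axis) against distance from the centromeric end of the arm sequence in Mb (horizontal axis), 1 panel per arm and 1 line per list, with the first 1.5 Mb shaded. On 3L the line of the combined list is lower in the shaded part than in most bins beyond it. On X low values continue outside the shaded part, with 10.97% covered from 1500 to 2000 kb in the combined list. On 3R the combined list reaches 64.7% at the outer edge of the shaded part.

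Among the 4 proximal ends, the longest stretch without any cluster lay on X in each of the 3 lists. Gaps between neighbouring clusters in the rest of the 4 arms were longer only for replicate 1, reaching 375091 bp on 3L. Their maximum was 78037 bp on X for the combined list, and 466264 bp on 2L for replicate 2. The heterochromatin sequence 3LHet, treated below, held longer gaps than proximal X in those lists, with maxima of 109202 and 539349 bp. At the proximal end of X, the longest gap of the combined list ran from 21686681 to 21792803, a length of 106 kb. Replicate 1 had no cluster there between 21640050 and 21862657, which contains that gap. Replicate 2 held no cluster on X between 21943025 and 22414451, a length of 471 kb, and none in 5 of the 15 bins of 100 kb. The longest gaps between neighbouring proximal clusters of the combined list at the other ends were 48.9 kb on 2L, 45.6 kb on 3L and 48.0 kb on 3R. On 2L the cluster-free stretch from the border to the first proximal cluster was longer, at 78376 bp. Typical spacing in the combined list was also wider at 3 of the 4 ends. The median gap between neighbouring clusters was 5061 bp at the proximal end of 3L and 2213 bp in its rest, 4735 bp and 2472 bp on 2L, and 4124 bp and 2731.5 bp on X. On 3R it was 1913 bp at the proximal end and 2076 bp in the rest. In replicate 2 the median gap on X was 6847.5 bp at the proximal end and 7013 bp in the rest, so the wider spacing of X was not shared by that list.

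Over the 4 arms pooled, median cluster length differed by less than the spread between the replicate lists. The median was 1527.5 bp at the proximal ends and 1509 bp in the rest of the combined list, 1662.5 and 1584 bp in replicate 1, and 1970 and 1995 bp in replicate 2. The difference over the replicate lists was 26.8 bp ± 73.2 (SD, n = 2) and changed sign between them. Clusters of at least 3000 bp made up 11.4% of all clusters of the combined list. They were 69 of the 722 proximal clusters (9.56%) and 11.2% of those in the rest, so their share was near that background. On proximal 3R 32 of 272 clusters (11.8%) were that long, against 11.0% in the rest of 3R. On X the share was 8.45% at the proximal end and 12.1% in the rest, and the median length was 1447 and 1560 bp. Replicate 1 had no cluster of at least 3000 bp at the proximal end of X and 2.25% in the rest, and replicate 2 had 5.41% and 17.8%. Over all clusters of those lists the share was 4.07% for replicate 1 and 16.1% for replicate 2.

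Scores were given by the authors, 1 per cluster, on a log2 scale whose zero is not stated, and are compared only within a list. The median score was nearly equal, at 0.44 for the proximal ends and 0.43 for the rest in the combined list, 0.64 and 0.63 in replicate 1, and 0.61 and 0.62 in replicate 2. The difference over the replicate lists was -0.002 ± 0.009 (SD, n = 2). The upper tail was wider over the 4 arms pooled. The 90th percentile of scores was 0.68 at the proximal ends and 0.56 in the rest of the combined list, 0.88 and 0.77 in replicate 1, and 1.17 and 1.07 in replicate 2. That difference of 0.10 ± 0.01 over the replicate lists (SD, n = 2) had the same sign in each library, with an exact sign-flip permutation p of 0.5, again the smallest possible. The arms did not share it. On 2L the 90th percentile was higher at the proximal end in both replicate lists, by 0.22 ± 0.08 (SD, n = 2). In replicate 2 it was 0.77 at the proximal end of 3L and 1.004 in the rest, and 0.94 and 1.17 on X. In replicate 1 it was 0.68 at the proximal end of 3R and 0.74 in the rest.

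The equal medians concealed differences between arms. On 3L the median score was 0.504 at the proximal end and 0.42 in the rest of the combined list, above all 14 windows of that arm. In replicate 1 the 3L values were 0.75 and 0.62, again above all 14 windows. Replicate 2 gave 0.597 and 0.59, above 9 of 14 windows, from only 26 proximal clusters. The 3L difference over the replicate lists was 0.07 ± 0.09 (SD, n = 2), within their spread. On 3R the direction was opposite in the combined list, at 0.41 for the proximal end and 0.42 for the rest, and in replicate 1, at 0.59 and 0.62. In both of those lists the proximal median lay below all 16 windows of 3R. Replicate 2 did not share that order, with 0.62 at the proximal end of 3R and 0.598 in the rest. On X the combined medians were 0.48 at the proximal end, below all 13 windows, and 0.504 in the rest. Replicate 2 had 0.63 and 0.71 on X, with the proximal median again below all 13 windows. Replicate 1 did not share that order, with 0.75 and 0.74, and its proximal median was above 10 of 13 windows.

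High scores were then counted, taking a score of at least 1. Of all clusters, 2.65% reached that score in the combined list, 2.04% for replicate 1 and 12.2% for replicate 2. These backgrounds count every sequence of the lists, heterochromatin included. At the proximal ends the counts were 27 of 722 clusters (3.74%) in the combined list, 7 of 222 (3.15%) for replicate 1 and 32 of 201 (15.9%) for replicate 2. In the rest of the same arms the shares were 1.24%, 0.67% and 12.2%. By arm, the combined list had 10 such clusters at the proximal end of 2L (6.58%, against 1.41% in the rest) and 9 on 3L (5.77%, against 0.87%). There were 5 on 3R (1.84%, against 1.01%) and 3 on X (2.11%, against 1.94%). In the combined list the shares of 2L and 3L exceeded those of all 13 and all 14 windows of the rest of those arms, and in replicate 1 they did so too, from 2 and 3 clusters. The 2L window next to the proximal end came close in the combined list, at 6.06%. In replicate 2 that window had 30.2%, above the 23.1% of proximal 2L, which exceeded 12 of 13 windows. The rest of 2L had 12.1% in replicate 2. On 3L the replicate 2 share was below the rest, with 7.69% at the proximal end and 10.04% in the rest, and 10 of 14 windows higher. On X replicate 2 had 8.11% at the proximal end and 16.2% in the rest, below all 13 windows.

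The high-scoring clusters differed in whether the replicate lists held them. A combined cluster was called touched when a replicate cluster overlapped it by at least 1 bp. Of the 22 clusters with a score of at least 1 at the proximal ends of 2L, 3L and X, 18 (81.8%) were touched by neither replicate list, 3 by both and 1 by replicate 1 only. In the rest of those 3 arms, 29 of 128 (22.7%) were touched by neither. All 5 on proximal 3R were touched by both lists. Of the 22 clusters, 11 were at most 1100 bp long, and the median length of the 22 was 1164.5 bp. In the rest of those 3 arms, 23 of the 128 were that short, and the median of the 128 was 2680 bp. Among clusters of any score, 14.8% at the 4 proximal ends and 16.4% in the rest were that short. At those 4 ends the shortest combined cluster had 1001 bp, whereas neither replicate list held any below 1302 bp. Whether this difference in shortest length bears on the overlap was not tested. The 5 clusters on 3R were between 2360 and 8426 bp long. Among combined clusters touched by at least 1 replicate list, a selection made after the values were seen, the share scoring at least 1 was 9 of 346 (2.60%) at the proximal ends and 142 of 6735 (2.11%) in the rest.

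**Figure D4:**
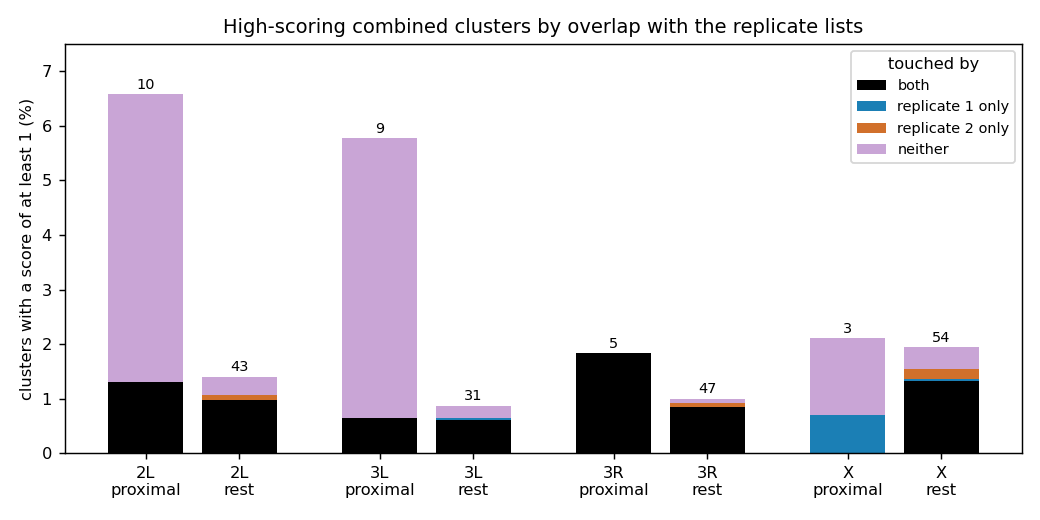
Percentage of combined clusters with a score of at least 1 (vertical axis, from 0) at the proximal end and in the rest of each arm, stacked by the replicate lists that touched them, with the number of clusters above each bar. Most of the bars for proximal 2L and 3L is made of clusters that neither replicate list touched, whereas the bar of 5 clusters for proximal 3R is made of clusters touched by both.

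The 5 highest scores at the proximal ends came from 2L, X and 3L, and are named because of those values. On 2L these were 22457948 to 22458953 (1006 bp) and 22711620 to 22712620 (1001 bp), both with a score of 3.398, and 22230530 to 22231530 (1001 bp), with a score of 3.21. None of these 3 overlapped a replicate cluster. The cluster at 23433854 to 23434854 on 3L (1001 bp, score 2.398) was also touched by neither. The scores of 3.398 and 2.398 lay exactly 3 and 2 above 0.398, the most frequent score of the list (522 clusters), within 1e-09. A value of 3.398 was thus a ratio 8 times that of the most frequent score, and it recurred in the rest of the arms in 2 clusters. The reads behind these ratios are not in the lists, so the precision of such scores is unknown.

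The other high cluster was on X, at 21612725 to 21615002 (2278 bp), with a combined score of 2.51. In replicate 1 it corresponded to a cluster at 21613267 to 21615095 with a score of 4.25, which ranked 1 among the 6433 clusters of that list. Replicate 2 held no cluster there. The highest score of replicate 1 anywhere in the genome was therefore at a centromere-proximal end but was not repeated in the second library.

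**Figure D5:**
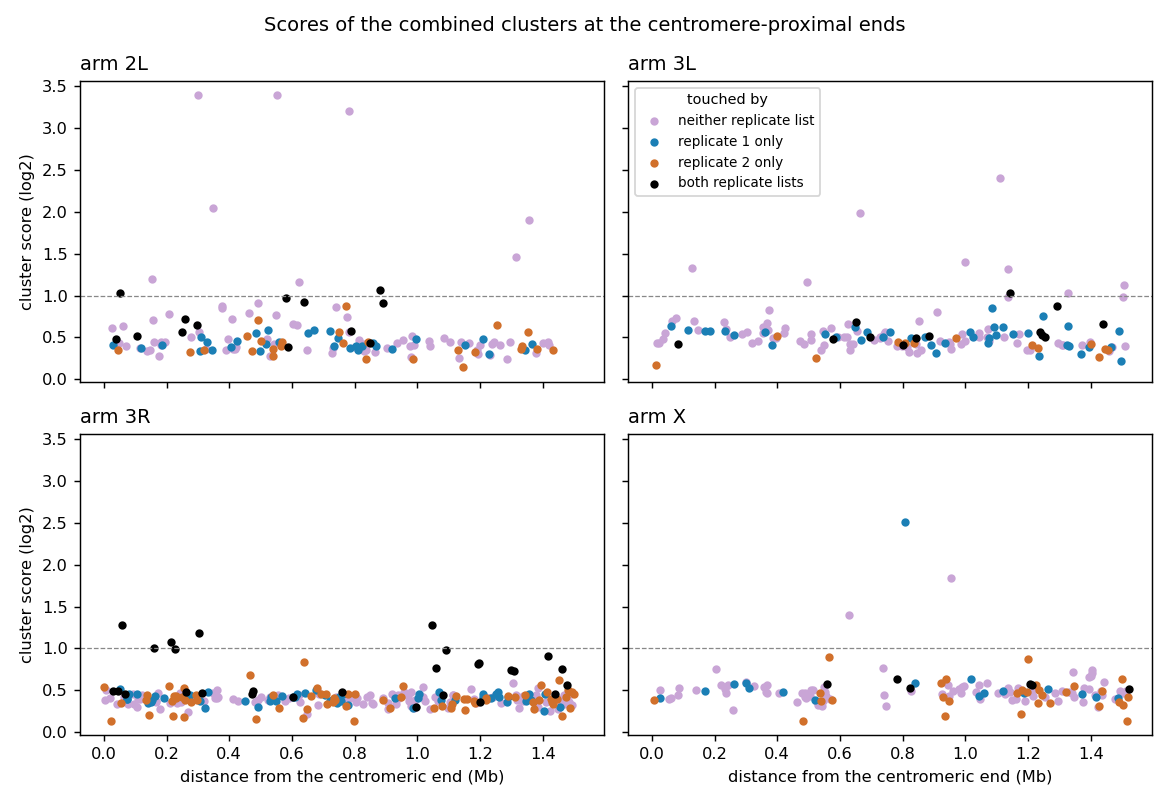
Score of each of the 722 combined clusters (vertical axis, log2) against the distance of its midpoint from the centromeric end in Mb (horizontal axis), 1 panel per arm, coloured by the replicate lists that touched it, with a dashed line at a score of 1. The points above 2 on 2L and 3L are touched by neither replicate list, whereas the 5 points above 1 on 3R are touched by both.

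Over all scores, the replicate lists touched proximal clusters about as often as others. Both lists touched 60 of the 722 proximal clusters (8.31%, exact 95% Clopper-Pearson interval 6.40% to 10.6%, which treats clusters as independent), against 8.4% of all combined clusters and 8.45% in the rest. A further 144 (19.9%) were touched by replicate 1 only, 142 (19.7%) by replicate 2 only and 376 (52.1%) by neither. Over all combined clusters those shares were 20.8%, 19.2% and 51.6%. By arm, the share touched by both was 10.3% on proximal 3R, 8.55% on 2L, 8.33% on 3L and 4.23% on X. In the rest of those arms it was 8.45%, 8.92%, 8.71% and 7.62%. The 95% intervals were 6.95% to 14.5% for proximal 3R and 1.57% to 8.97% for proximal X. They too treat neighbouring clusters as independent, so they are no test of a proximal end against its rest. On 3L replicate 1 alone touched 40 proximal clusters (25.6%) and replicate 2 alone touched 13 (8.33%), against 20.3% and 18.9% in the rest of 3L. On 3R this balance was turned, with 54 (19.9%) for replicate 1 alone and 73 (26.8%) for replicate 2 alone. In the rest of 3R those shares were 22.5% and 16.5%.

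Set directly against each other, 64 of the 222 proximal clusters of replicate 1 (28.8%) were touched by replicate 2, against 27.8% in the rest and 27.2% over the whole list. In the other direction replicate 1 touched 59 of 201 replicate 2 clusters (29.4%), against 29.2% in the rest and 29.4% over the whole list. Of the bases that at least 1 library covered, 11.99% were shared at the proximal ends and 11.4% in the rest. On X that share was 3.68% at the proximal end and 9.60% in the rest, and on 3R it was 13.7% and 11.4%. Replicate 2 covered 0.44 times as many bases as replicate 1 at the proximal end of 3L, and 1.13 times as many in its rest. At the proximal end of 3R that ratio was 1.55, and 1.0002 in its rest.

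The clusters named next had the highest combined scores among those touched by both lists on each arm, a rule that favours high values, so the scores are a description. On 3R the first was 1042125 to 1050550 (8426 bp, score 1.28), the second-longest proximal cluster of that arm. Replicate 2 divided it into 3 clusters, of which that at 1047372 to 1050513 scored 2.35, rank 16 of its list. Replicate 1 placed 1 cluster at nearly the same position, 1047571 to 1050337, with a score of 1.25 and rank 58 of its list. The next on 3R were 56677 to 60050 (3374 bp, score 1.28) and 303937 to 306406 (2470 bp, score 1.18). Their replicate 2 scores of 1.78 and 1.53 ranked at the 98.5 and 96.96 percentiles of that list, whereas their replicate 1 scores of 0.66 and 0.52 ranked at the 58.8 and 12.6 percentiles.

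On 2L the leading clusters were 22128033 to 22132407 (4375 bp, score 1.07), 22959590 to 22962224 (2635 bp, score 1.03) and 22427905 to 22432903 (4999 bp, score 0.97). They stood between the 94.8 and 96.7 percentiles of replicate 2, with scores of 1.34 to 1.51. In replicate 1 their scores were 0.73, 0.59 and 0.43, at the 80.0, 32.8 and 2.42 percentiles. As on 3R, the ranks were high in 1 library and mostly ordinary in the other. The cluster at 22959590 lay 49320 bp from the end of the 2L sequence.

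The 3L leaders were more even between the libraries. The first, at 23400978 to 23403263 (2286 bp, score 1.03), scored 1.35 in replicate 2 and 0.92 in replicate 1, at the 95.005 and 96.6 percentiles. The second, at 23250677 to 23253881 (3205 bp, score 0.88), stood at the 91.8 percentile in replicate 2 and the 73.1 percentile in replicate 1. The third, at 23889995 to 23892737 (2743 bp, score 0.68), ranked higher in replicate 1 (97.0 percentile) than in replicate 2 (58.8 percentile).

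On X the leaders had lower scores. They were 21638422 to 21641421 (3000 bp, score 0.63), 21862230 to 21864253 (2024 bp, score 0.57) and 21214398 to 21219774 (5377 bp, score 0.57), with 6 proximal X clusters touched by both lists in all. In the first and the third, the main replicate clusters stood next to each other more than on top of each other. In the first, replicate 1 placed its cluster at 21638257 to 21640049 and replicate 2 at 21639795 to 21641442. The second scored 0.95 in replicate 2 and 0.26 in replicate 1, where it was among the lowest scores of the list (0.047 percentile).

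The longest proximal clusters were not those with the highest scores. The longest was on 3R, at 1291516 to 1303918 (12403 bp, score 0.74), with 83.7% of its bases inside replicate 2 clusters and 31.0% inside replicate 1 clusters. On 2L it was 22758418 to 22767496 (9079 bp, score 0.57), with the opposite balance, 14.5% in replicate 2 and 82.3% in replicate 1. The longest on 3L, at 24457121 to 24463583 (6463 bp, score 0.42), was likewise covered more by replicate 1 (95.1%) than by replicate 2 (33.5%). On X it was 21223713 to 21230272 (6560 bp, score 0.47), touched by replicate 2 only.

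Clusters reached nearly to the ends of the assembled arms. The last combined cluster lay 26424 bp from the end of 2L, 12623 bp from that of 3L and 6835 bp from that of X, and on 3R the first began at position 6. Those on 3L, 3R and X were touched by replicate 2 only, and that on 2L by neither list. At the borders of the rule, the nearest clusters inside had scores of 0.35 on 2L, 0.404 on 3L, 0.45 on 3R and 0.52 on X. The nearest outside had scores of 1.01, 0.39, 0.402 and 0.09 on the same arms. On 2L the cluster nearest the border began 78376 bp inside the border, so no cluster had its midpoint in that stretch.

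Pooled over the 4 arms, the proximal ends lay between the rest of the arms and the assembled heterochromatin sequences in coverage. The sequences 2LHet, 3LHet, 3RHet and XHet hold heterochromatin of the same chromosomes. When pooled, they were covered to 12.5% in the combined list, 5.03% for replicate 1 and 1.95% for replicate 2. These shares were below the pooled proximal ends of the same list in each case. Single arms departed from this order. Proximal 3R was above its rest in the combined list and in replicate 2. Proximal X in replicate 1, at 2.91%, was below the pooled heterochromatin sequences. Their median score was 0.57 in the combined list, above the 0.44 of the proximal ends, and 15.3% of their 405 clusters scored at least 1, against 3.74% at the proximal ends. At the other end of the arms, the distal 1 Mb was covered to 35.1% in the combined set, 10.6% for replicate 1 and 11.9% for replicate 2. These shares were above the pooled proximal ends in each list. The distal share of scores of at least 1 was 1.16% in the combined list. These values are given side by side without a test.

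Chromosome 4, the main known target of POF, was covered to 31.3% in the combined set, with the replicate values of 3.92% and 27.9% given above. The pooled proximal ends varied far less between the libraries, at 6.63% in replicate 1 and 7.32% in replicate 2. Chromosome 4 was thus covered less than these ends in replicate 1 and more in replicate 2. Replicate 2 covered 1.70 and 1.55 times as many bases as replicate 1 at the proximal ends of X and 3R, and 0.87 and 0.44 times as many at those of 2L and 3L. The origin of these differences between the libraries was not tested.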

How the data were processed

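The deposited data are 3 lists of clusters, for ChIP replicate 1, for ChIP replicate 2 and for the combined set. Per the submitters' processing notes, the authors aligned reads with Bowtie 0.12.7. Per the file headers, coordinates are those of FlyBase release 5. Not given in the sources used here are the caller, its threshold, the input used and how replicates were combined. The authors' cluster score was taken as log2 after testing its base on the deposited values. In replicate 1, 90.8% of 6241 scores lay a log2 step of a simple ratio (denominator up to 200, relative tolerance 1e-09) from the commonest score, and 0 lay such a natural log step away. The log2 shares were 47.1% for the combined set and 31.1% for replicate 2. The lists hold no read counts, so depth is unknown. No input list was analysed here.

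Coverage counted bases of a region inside clusters, clipped at its borders, over all bases of the header lengths; unresolved bases were not subtracted. Counts, lengths and scores used midpoints. The 1 depleted region was left out. Clusters of 1 library are not replicates, so tests used only the 2 libraries (exact sign-flip permutation). On each arm, the clusters named were the 3 highest-scoring proximal clusters touched by both lists, the longest, that nearest the centromeric end and those beside the border. Members and rules were chosen with earlier results of these data known. The gene table used here is of release 6, so no gene was placed and no sequence is shown. Alternatives were other lists, filters, merging, widths, arms left out and overlap rules. Interval counting was checked on simulated lists. Computation used scipy 1.17.1, pandas 2.3.3 and numpy 2.4.6 under Python 3.11.15, and plots used matplotlib 3.10.9.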

Additional observations from a re-analysis of the deposited data

How the results depend on the processing

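The difference in covered share between the proximal ends and the rest, -7.92 percentage points in the combined list, kept its sign under the alternatives tried, except 1. It was -1.95 in the list of replicate 1, -3.00 in that of replicate 2, -3.63 for scores at or above the list median and -4.32 for clusters of at least 2000 bp. It was -6.68 without 3L, -10.7 without 3R, -6.75 without X and -9.47 with the proximal 1.0 Mb. For clusters with a score of at least 1, a filter added after the data were seen, it turned to 0.26, with 0.42 on 2L alone, 0.47 on 3L alone, 0.63 on 3R alone and -0.50 on X alone. The mean of the replicate lists, -2.47, ranged from -3.00 to -1.95 with 1 library left out. The median length difference of 18.5 bp changed by less than 1 SD between the replicate lists (73.2 bp) under every alternative. Its replicate mean ranged from -25.0 to 78.5 bp, and on 3R alone the 133 bp of the combined list turned to -18.5 bp for clusters of at least 2000 bp. The median score difference of 0.007 was -0.0082 in replicate 2, 0.029 for scores at or above the median, 0.026 for clusters of at least 2000 bp, -0.012 without 3L and 0.033 without 3R, and its replicate mean ranged from -0.0082 to 0.0048. The share touched by both lists, 8.31%, was 4.99% when each list had to cover 50% of the cluster and 14.5% for scores at or above the median. The matching shares of the rest are not given here, so these values do not set the proximal ends apart from it. In the rest too, clusters touched by both lists had a higher median score, 0.53, than those touched by neither, 0.43. The causes were not tested. No paired analysis was possible because the groups whose labels share replicate numbers, ChIP and input, were not compared. The proximal ends and the rest were compared within each library. With 2 libraries, the exact sign-flip permutation test cannot give a p below 0.5.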
